A study of Mus musculus with 4 samples.

Results

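Hematopoietic stem cells are rare marrow cells that renew themselves and give rise to every blood lineage. A set of 32 genes that mark these cells on their surface or keep their identity was listed by name, and 29 of the 32 had a row among the 15607 genes of the deposited table. Tcf15, Ramp2 and Ndn had none and were not analysed here. The measurements came from 4 RNA-seq libraries of lineage-negative mouse bone marrow cells, which are marrow cells sorted to lack the markers of mature blood cells. Mice 5 and 6 are labelled as knockouts of Mel18, made by conditional deletion in the blood system, and mice 1 and 3 as wild type. Sample titles call the cells HSCs, the cell type label calls them stem and progenitor cells, and each library is a separate mouse by its title. Neither the driver of the deletion nor the strain, age or treatment of the mice is given in the sources used here.

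In adult marrow most stem cells are dormant, and they are held there by contacts with niche cells and by soluble ligands. The ligand of Kit sustains them, and angiopoietin 1 acts through the receptor Tek. A small set of transcription factors, Mecom, Hlf and Prdm16 among them, is needed for self-renewal. Mel18, encoded by Pcgf2, is a subunit of Polycomb repressive complex 1, which silences developmental genes, and the study asked whether its loss changes transcription in these cells. Lineage-negative marrow is mostly progenitors, with stem cells a small fraction. In such bulk samples fewer cells of a type and less RNA per cell cannot be told apart.

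Total counts were 46240864 and 44642002 in Mel18 knockout mice 5 and 6, and 35599564 and 37197363 in wild type mice 1 and 3. Pcgf2 had 303 and 321 counts in the libraries labelled Mel18 knockout and 210 and 158 in those labelled wild type, so over the whole gene the libraries labelled knockout had more counts (log2 fold change 0.44, edgeR quasi-likelihood adjusted p = 0.575). Which exons were deleted is not given in the sources used here, so this count does not check the genotype, and directions below are those between libraries as labelled. Over all genes 5 rose and 16 fell by the edgeR quasi-likelihood test at an adjusted p under 0.05, which is 0.032% and 0.103% of the genes tested.

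No stem cell gene was among them. Of the 29 members, 0 rose and 0 fell by the quasi-likelihood test, against 0.135% of all genes called in either direction (0.032% higher and 0.103% lower), and 4 had an unadjusted p under 0.05, against 8.89% of all genes. Neither limma voom, which called 0% of all genes, nor the edgeR likelihood ratio test, which called 1.13%, called a member. The DESeq2 Wald test called 1 member, Cavin2, as higher, with 0.348% of its genes called higher and 1.59% called in all. The authors' deposited table holds 0 of the 29 at an adjusted p under 0.05, beside 1.13% of all genes. The other quasi-likelihood settings also called 0 members, with 0.128% of all genes called under DESeq2 size factors, under total counts alone and after removal of 19 genes (mitochondrial, hemoglobin, Y-linked and of X inactivation). The share was 0.135% without a filter, 0.0783% with a filter of 1 CPM in 2 libraries and 0.0256% without robust estimation. The median log2 fold change of the members was -0.084, beside -0.0053 over all genes. Log2 fold changes ranged from -0.74 for Ly6a to 0.69 for Cavin2 and Trpc6. Both knockout libraries lay above both wild type libraries for 8 members, which all genes did in 21.4% of cases, and below both for 4 members, which all genes did in 20.9%.

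Expressed per kb of gene length, the members spanned a wide range of levels. Mean levels over the 4 libraries ran from 0.0359 RPKM for the growth hormone receptor gene Ghr to 57.3 RPKM for Adgrg1, and 12 members lay under 1 RPKM. The 6 members at 10 RPKM or more were Adgrg1, Gda, Kit, Cd34, Cd27 and Ly6a, and known stem cell markers such as Fgd5 (0.124 RPKM), Mecom (0.157 RPKM) and Slamf1 (0.365 RPKM) were near the low end. The median level of the members was 1.43 RPKM, against 4.83 RPKM over all genes. A list of 25 progenitor genes had a median level of 81.4 RPKM in the same libraries. A total of 16 members had fewer than 1000 counts over the 4 libraries together, so their values carry the largest counting error.

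**Figure D1:**
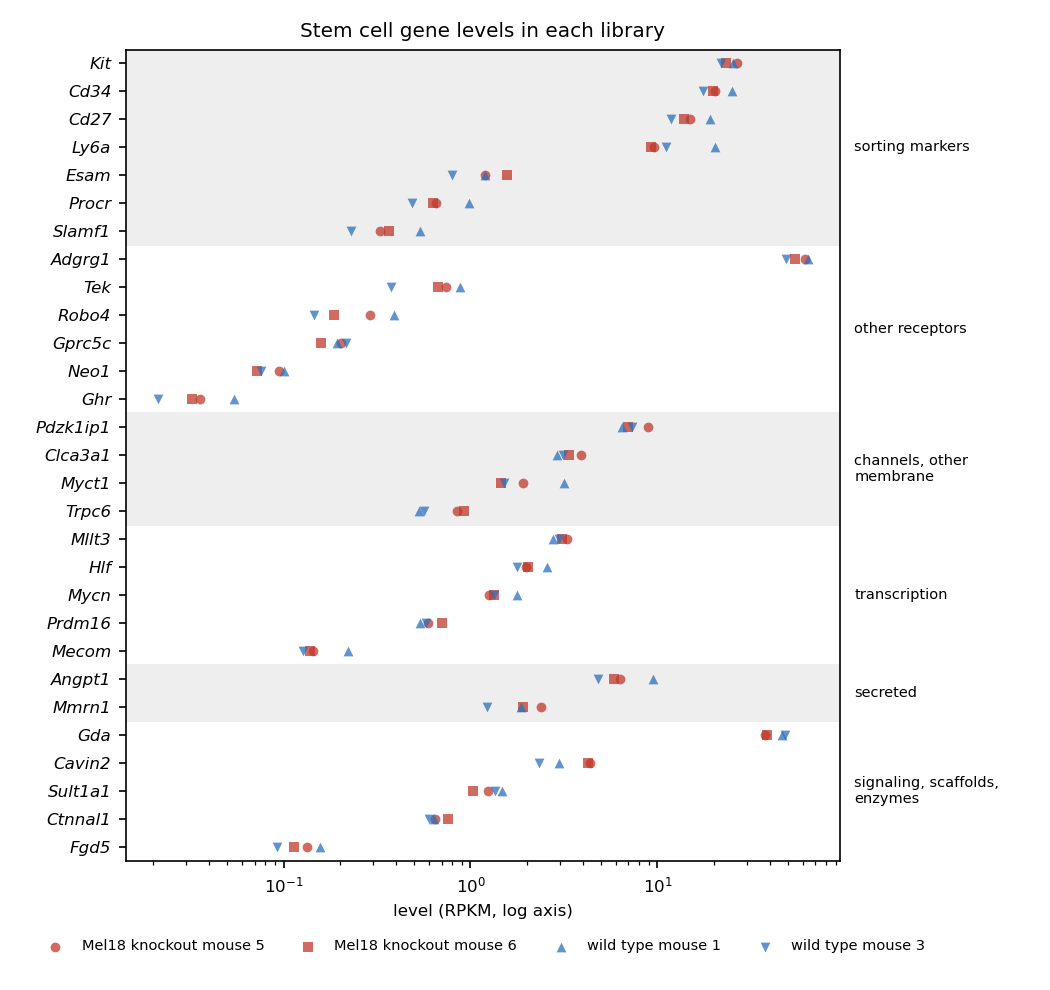
Level of each stem cell gene (RPKM, log axis) in the 4 libraries, red for Mel18 knockout mice 5 and 6 and blue for wild type mice 1 and 3, grouped by role. Ghr is lowest at a mean of 0.0359 RPKM and Adgrg1 highest at 57.3 RPKM, and in many rows the red points sit between the upward and downward blue triangles of wild type mice 1 and 3.

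Sequence upstream of the start is shown for 4 genes whose values come up again. Tek and Slamf1 are among the members with the widest gap between the wild type mice, and Cavin2 and Trpc6 had the smallest p-values. Each run is the plus strand of GRCm38.p6, the assembly behind mm10, from RefSeq, and covers 240 bases that end 11 bases before the RefSeq start. The positions are chr4:94739039-94739278 for Tek, chr1:171766882-171767121 for Slamf1, chr1:51288876-51289115 for Cavin2 and chr9:8543892-8544131 for Trpc6. Capitals mark matches, on either strand, to any of 4 motif families of blood stem cell factors, named GATA, ETS, RUNX and E-box. The GATA motif was spelled AGATAA, with TGATAA as its other accepted form. The ETS motif was spelled AGGAAG, with CGGAAG as its other accepted form. The RUNX motif was spelled TGTGGT, with TGCGGT as its other accepted form. The E-box was spelled CAGCTG, with CAGATG as its other accepted form.
Tek: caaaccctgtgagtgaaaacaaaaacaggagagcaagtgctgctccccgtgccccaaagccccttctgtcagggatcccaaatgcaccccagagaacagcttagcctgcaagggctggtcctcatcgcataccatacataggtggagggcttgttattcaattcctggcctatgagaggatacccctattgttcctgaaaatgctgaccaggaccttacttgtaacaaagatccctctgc
Slamf1: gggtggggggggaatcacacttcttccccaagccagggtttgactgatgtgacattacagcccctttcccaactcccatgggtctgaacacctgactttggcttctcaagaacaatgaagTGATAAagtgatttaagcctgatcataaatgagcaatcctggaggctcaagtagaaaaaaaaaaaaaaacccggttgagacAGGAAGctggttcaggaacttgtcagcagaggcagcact
Cavin2: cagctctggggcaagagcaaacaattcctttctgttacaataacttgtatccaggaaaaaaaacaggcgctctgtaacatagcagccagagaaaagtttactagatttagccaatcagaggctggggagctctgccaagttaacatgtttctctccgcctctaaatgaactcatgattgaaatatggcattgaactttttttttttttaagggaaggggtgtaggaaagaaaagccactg
Trpc6: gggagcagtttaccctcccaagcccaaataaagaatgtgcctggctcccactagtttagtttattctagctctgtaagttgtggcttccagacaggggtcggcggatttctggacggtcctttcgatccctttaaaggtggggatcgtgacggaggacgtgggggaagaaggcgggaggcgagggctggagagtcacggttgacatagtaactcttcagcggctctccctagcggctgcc
Slamf1 held 1 GATA and 1 ETS match, and the other three runs held none. An upstream window was found for 25 of the 29 measured members. GATA letters stood in 5 of the 25 (20%) and in 16.6% of 27025 genes with such a window. ETS letters stood in 7 (28%), against 37.3% of all windows, E-box letters in 6 (24%), against 24.5%, and RUNX letters in 0, against 18%. The members' windows held from 0 to 43 CG dinucleotides, with a median of 5, equal to that over all windows. A match or its absence describes these letters in this window alone.

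Surface markers used to sort stem cells were first examined. Kit, the receptor of stem cell factor (chromosome 5, 75574916 to 75656722), was at 238 and 207 CPM in Mel18 knockout mice 5 and 6 and 226 and 195 CPM in wild type mice 1 and 3. The groups overlapped, and the log2 fold change was 0.081 ± 0.11 (SE), with a 95% interval from -0.18 to 0.34 (quasi-likelihood adjusted p = 0.827). Cd34, a sialomucin of progenitors and of endothelium (chromosome 1, 194938819 to 194961279), was at 148 and 145 CPM in knockout mice, against 183 and 128 CPM in wild type mice. Here the knockout libraries were close to each other and stood between the wild type libraries, and the interval of the log2 fold change ran from -0.48 to 0.32.

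Ly6a, the Sca-1 antigen (chromosome 15, 74994877 to 74998031), had the most negative log2 fold change among the members. It was at 11.6 and 11.2 CPM in Mel18 knockout mice 5 and 6, against 24.5 and 13.4 CPM in wild type mice 1 and 3, so both knockout libraries were below both wild type libraries. The mean was 11.4 ± 0.270 CPM in knockout and 19.0 ± 7.91 CPM in wild type (SD, n = 2 each), and the log2 fold change, -0.74 ± 0.29 (SE), missed the threshold (quasi-likelihood adjusted p = 0.554). Set against wild type mouse 1 alone, by leaving out mouse 3, the log2 fold change was -1.12 (adjusted p = 0.00355), and against wild type mouse 3 alone it was -0.23 (adjusted p = 0.597). The size of the Ly6a difference thus depended on which wild type library was used.

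Slamf1, the CD150 antigen of long-term stem cells (chromosome 1, 171767127 to 171801184), had 93 and 101 counts in Mel18 knockout mice 5 and 6, against 121 and 51 counts in wild type mice 1 and 3. Scaled to library size this was 2.01 and 2.26 CPM in knockout mice, and 3.31 and 1.41 CPM in wild type mice. Procr, the endothelial protein C receptor (chromosome 2, 155751117 to 155755471), had 61 and 57 counts in knockout mice and 73 and 36 in wild type mice. Both genes had the knockout libraries between the wild type libraries, with log2 fold changes of -0.14 ± 0.39 (SE) for Slamf1 and -0.20 ± 0.36 (SE) for Procr. Cd27, a receptor of the tumor necrosis factor family (chromosome 6, 125232622 to 125237010), showed the same order, at 34.8 and 32.4 CPM in knockout mice and at 44.7 and 27.6 CPM in wild type mice. Esam, an adhesion molecule of stem cells and endothelium (chromosome 9, 37528078 to 37538319), differed from these in sign. It was at 3.44 and 4.50 CPM in knockout mice and at 3.42 and 2.29 CPM in wild type mice, with knockout mouse 5 and wild type mouse 1 almost level (log2 fold change 0.48 ± 0.26 (SE), adjusted p = 0.618).

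Of the 6 other membrane receptors, 4 had both knockout libraries between the wild type libraries, beside 19.1% of all genes. Tek, the receptor of angiopoietins (chromosome 4, 94739289 to 94874976), had 160 and 141 counts in Mel18 knockout mice 5 and 6, against 152 and 64 in wild type mice 1 and 3. In CPM it was 3.46 and 3.16 in knockout mice and 4.16 and 1.77 in wild type mice, with a log2 fold change of 0.16 whose 95% interval ran from -0.77 to 1.09. Robo4, a roundabout family receptor (chromosome 9, 37401897 to 37415115), had 71 and 44 counts in knockout mice and 76 and 28 in wild type mice. Adgrg1, an adhesion G protein-coupled receptor also called GPR56 (chromosome 8, 94974751 to 95014217), was abundant, at 336 and 297 CPM in knockout mice and 345 and 265 CPM in wild type mice. Its log2 fold change was 0.053 ± 0.14 (SE), with an interval from -0.28 to 0.38. Ghr had only 15 and 13 counts in knockout mice, and 18 and 7 in wild type mice. Neo1, a receptor of netrins, and the orphan receptor gene Gprc5c lay under 1 RPKM, with log2 fold changes of -0.084 ± 0.34 and -0.18 ± 0.29 (SE).

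Among channels and other membrane proteins, Trpc6, a cation channel gene (chromosome 9, 8544142 to 8680741), had the largest log2 fold change. It had 198 and 208 counts in Mel18 knockout mice 5 and 6, against 98 and 103 in wild type mice 1 and 3, which was 4.29 and 4.66 CPM in knockout mice and 2.68 and 2.84 CPM in wild type mice. The pairs were tight and did not overlap. The log2 fold change of 0.69 ± 0.19 (SE) had a 95% interval from 0.24 to 1.15 and an unadjusted p of 0.00850, and after adjustment over all genes it did not pass (quasi-likelihood adjusted p = 0.354). Clca3a1, of a family of chloride channel regulators with near-identical copies (chromosome 3, 144729677 to 144760977), was at 15.1 and 13.1 CPM in knockout mice and 11.3 and 12.1 CPM in wild type mice. Pdzk1ip1, a small membrane protein gene also called MAP17, overlapped between groups, with 15.9 and 12.4 CPM in knockout mice and 11.5 and 13 CPM in wild type mice. Myct1 (chromosome 10, 5593775 to 5606904) was at 5.41 and 4.14 CPM in knockout mice and at 8.97 and 4.31 CPM in wild type mice, with wild type mouse 1 alone standing high.

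None of the 5 measured transcription factors and cofactors passed the test. Mllt3, a reader of acylated histones in the super elongation complex (chromosome 4, 87769925 to 88033364), was at 39.5 and 37.1 CPM in Mel18 knockout mice 5 and 6, against 33.2 and 35.8 CPM in wild type mice 1 and 3. The groups did not overlap, and the log2 fold change was 0.15 ± 0.093 (SE; quasi-likelihood adjusted p = 0.644), with an interval from -0.067 to 0.37. Hlf, a bZIP factor of stem cells (chromosome 11, 90336536 to 90390895), was at 13.2 and 13.7 CPM in knockout mice and 17.1 and 11.8 CPM in wild type mice, with the knockout libraries inside the wild type pair. Mecom, the zinc finger factor EVI1 (chromosome 3, 29951296 to 30548008), had 82 and 77 counts in knockout mice and 100 and 57 in wild type mice, also inside. The table holds 1 value for the whole Mecom locus, so its isoforms were not separated. Prdm16, a related zinc finger factor (log2 fold change 0.20 ± 0.18), and the Myc family gene Mycn (-0.28 ± 0.21) did not pass either.

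Angpt1, the angiopoietin that binds Tek (chromosome 15, 42424723 to 42676977), showed a wide gap within wild type at good depth. It had 1512 and 1367 counts in Mel18 knockout mice 5 and 6, against 1814 and 913 counts in wild type mice 1 and 3, or 32.7 and 30.6 CPM in knockout and 49.6 and 25.2 CPM in wild type. Within knockout, mouse 5 was 1.07 times mouse 6, with a 95% counting interval from 0.993 to 1.15 that covers counting error only. Within wild type, mouse 1 was 1.97 times mouse 3, with an interval from 1.82 to 2.13. For the receptor Tek the same ratios were 1.10 within knockout and 2.35 within wild type. Mmrn1, the gene of multimerin 1, a protein of platelets and endothelium (chromosome 6, 60924976 to 60989378), was at 13.9 and 11.2 CPM in knockout mice and 11 and 7.21 CPM in wild type mice, with a log2 fold change of 0.47 ± 0.22 (SE; quasi-likelihood adjusted p = 0.590).

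In the group of signaling proteins, scaffolds and enzymes, Cavin2 had the smallest p of all members. Cavin2 encodes a coat protein of caveolae (chromosome 1, 51289126 to 51302960) and had 614 and 577 counts in Mel18 knockout mice 5 and 6, against 334 and 258 counts in wild type mice 1 and 3. The mean was 13.1 ± 0.260 CPM in knockout and 8.13 ± 1.42 CPM in wild type (SD, n = 2 each), with no overlap. The log2 fold change was 0.69 ± 0.16 (SE), a fold of 1.61, with an unadjusted p of 0.00351 and a quasi-likelihood adjusted p of 0.269. It passed under DESeq2 (adjusted p = 0.0367) and without wild type mouse 1 (log2 fold change 0.88, adjusted p = 0.0237), and the fit without mouse 1 called 0.276% of all genes higher and 1.85% in all. Without wild type mouse 3 its log2 fold change was 0.51 and it did not pass (adjusted p = 0.0761). Gda, guanine deaminase (chromosome 19, 21391307 to 21473445), went the other way at high depth. It was at 236 and 241 CPM in knockout mice, against 289 and 301 CPM in wild type mice, a log2 fold change of -0.30 ± 0.085 (SE; adjusted p = 0.360). Fgd5, an exchange factor for Cdc42 used as a stem cell reporter locus (chromosome 6, 91978878 to 92076004), had 39 and 32 counts in knockout mice and 36 and 21 in wild type mice, with a 95% interval of the log2 fold change from -0.85 to 0.85. Ctnnal1, alpha-catulin, and Sult1a1, a sulfotransferase gene, had log2 fold changes of 0.18 ± 0.18 and -0.32 ± 0.24 (SE).

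**Figure D2:**
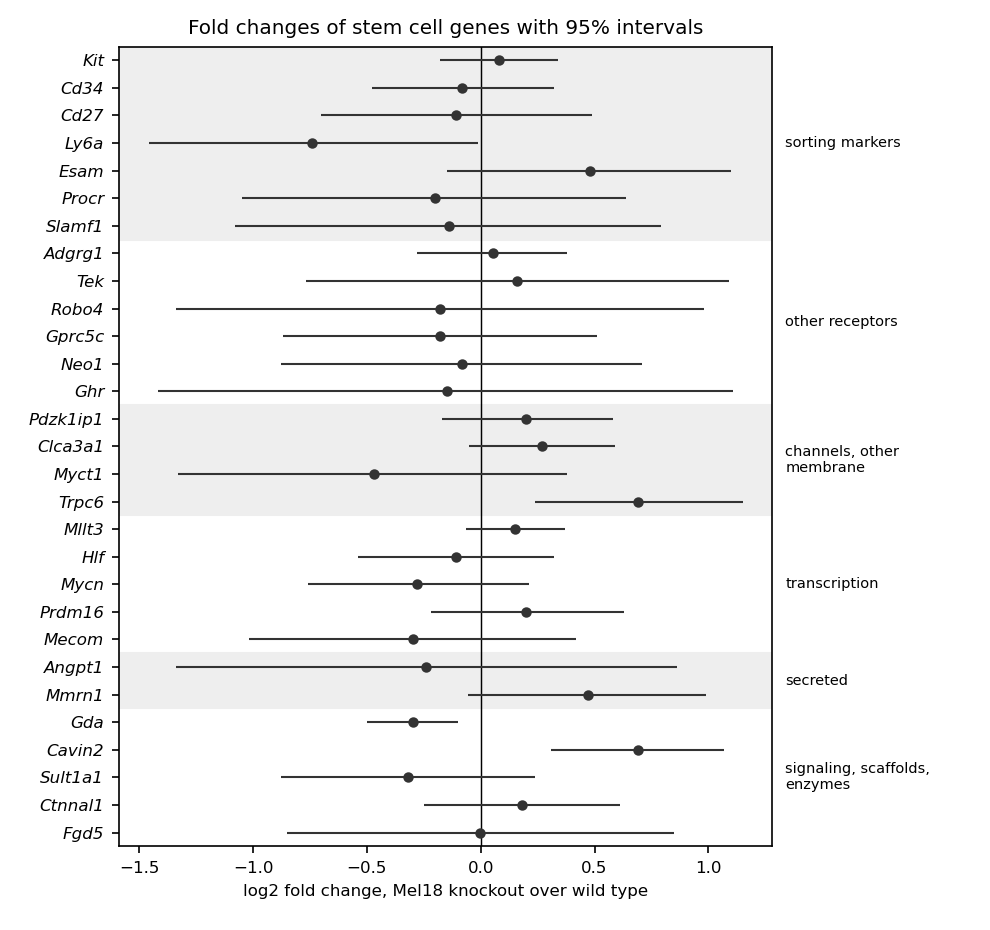
Log2 fold change of each stem cell gene, Mel18 knockout over wild type, from the edgeR quasi-likelihood fit. Bars are 95% intervals not adjusted for multiple testing, and those of Cavin2, Trpc6, Gda and Ly6a leave out 0.

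The knockout pair was closer together than the wild type pair, by the size of the log2 ratio, for 22 of the 29 members and for 64% of all genes. Trpc6, Clca3a1, Pdzk1ip1, Prdm16, Ctnnal1, Sult1a1 and Gprc5c had the wider gap within knockout. The ratio of mouse 5 to mouse 6 within knockout lay within 1.5 times for 28 of the 29 members, as it did for 91.1% of all genes, with a median of 1.07, and the exception was Robo4 at 1.56. The ratio of mouse 1 to mouse 3 within wild type had a median of 1.43, against 0.986 over all genes. It reached 1.5 or more for 12 members, which 9.66% of all genes did, and 2 or more for 6 members, which 3.97% of all genes did. Those 6 were Robo4 (2.69), Ghr (2.55), Tek (2.35), Slamf1 (2.35), Myct1 (2.08) and Procr (2.01). Counting error alone gave intervals from 1.68 to 3.33 for Slamf1 and from 1.01 to 7.21 for Ghr, the member with the fewest counts.

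In 12 of the 29 members wild type mouse 1 was highest, wild type mouse 3 lowest and both knockout mice between them, an order that 10% of all genes showed. The 12 were Adgrg1, Angpt1, Cd27, Cd34, Fgd5, Ghr, Hlf, Mecom, Procr, Robo4, Slamf1 and Tek. The opposite order, with mouse 3 highest and mouse 1 lowest, was found in 0 members and in 9.12% of all genes. Wild type mouse 1 was above mouse 3 in 22 of the 29 members and in 45.8% of all genes, and both knockout mice lay between the wild type mice, in either order, in 19.1% of all genes. Depth moved with this order. Mouse 1 was the higher one in 59.4% of the genes under 1000 counts over the 4 libraries and in 38.5% of deeper genes. Among members under 1000 counts in all 7 of 16 had this order, beside 14.6% of the 4595 genes from the lowest member's total up to that limit, and among deeper members 5 of 13 had it, beside 7.75% of 10175 genes. This pattern was noticed in the data and is given as a description, without a test.

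**Figure D3:**
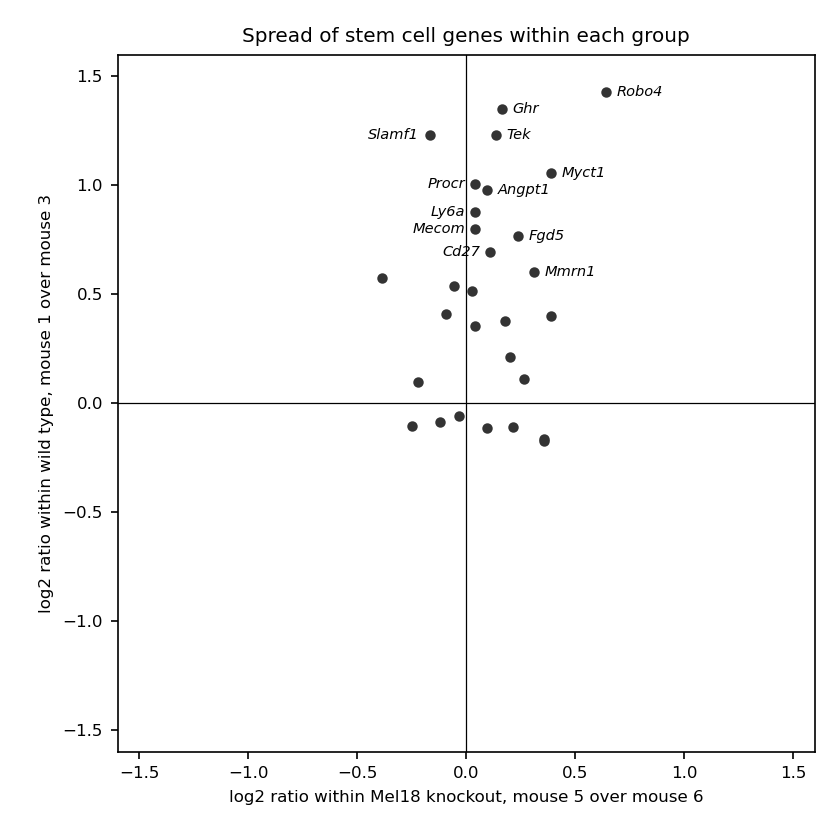
Log2 ratio of the libraries within each group for the 29 stem cell genes, with Mel18 knockout mouse 5 over mouse 6 on the x axis and wild type mouse 1 over mouse 3 on the y axis, on the same scale. Members at 1.5 times or more within wild type are named, and 22 of the 29 points lie above 0 on the y axis.

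Directions against wild type therefore depended on the wild type mouse. Without wild type mouse 1 the median over the members was 0.215 on the log2 scale, with 24 positive and 5 negative values. Without wild type mouse 3 the median was -0.326, with 9 positive and 20 negative values, and 15 members had opposite signs in the 2 fits. Without mouse 3 the quasi-likelihood test called 5 members lower, Ly6a, Angpt1, Cd34, Cd27 and Myct1, with 2.82% of all genes called lower in that fit and 5.41% called in all. Without mouse 1 it called Cavin2 alone, higher. Without knockout mouse 5 or mouse 6 it called 0 members, with 0.0322% and 0.116% of all genes called. In both fits without a wild type mouse the lone wild type library was assumed to vary like the knockout pair. Some genes had 1 direction whichever wild type mouse was left out. Cavin2, Trpc6, Clca3a1, Esam, Mmrn1, Mllt3, Prdm16, Ctnnal1 and Pdzk1ip1 had positive, and Ly6a, Gda, Mycn, Sult1a1 and Gprc5c negative, log2 fold changes in both.

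**Figure D4:**
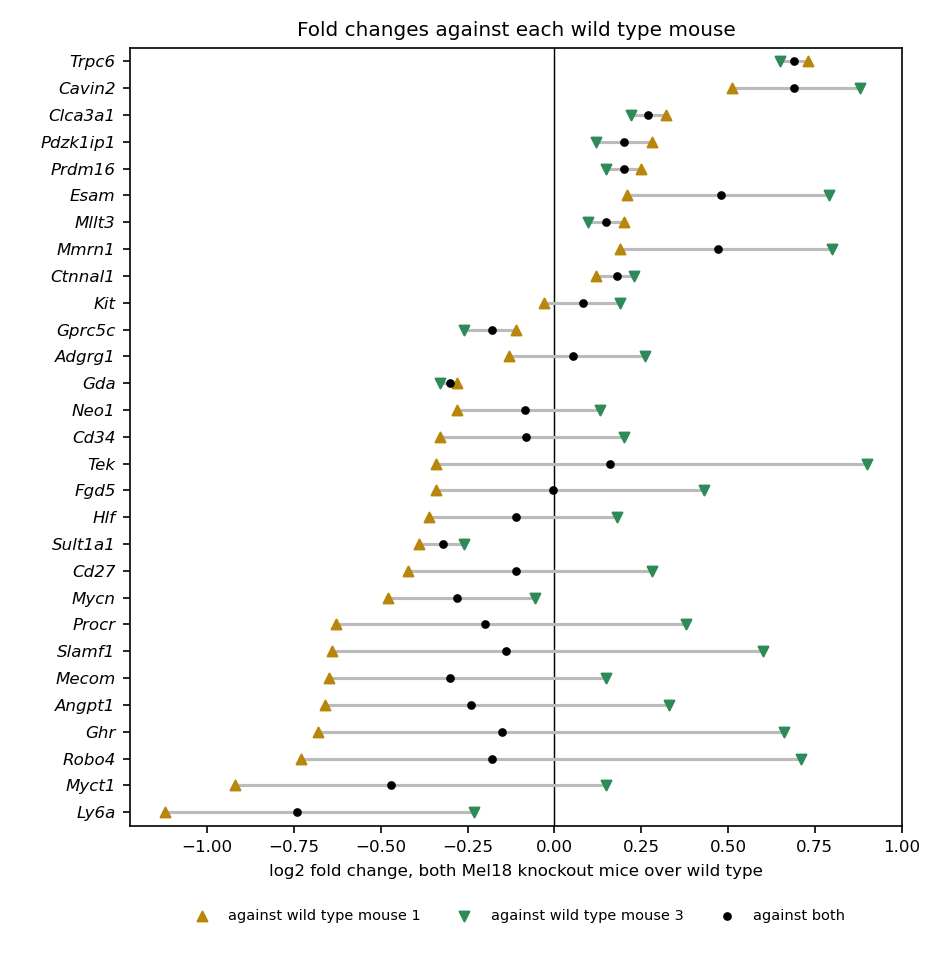
Log2 fold change of each stem cell gene in both Mel18 knockout mice, against wild type mouse 1 alone (triangles up), against wild type mouse 3 alone (triangles down) and against both (dots). For 15 of the 29 genes the triangles lie on opposite sides of 0, and Ly6a lies furthest left at -1.12 against mouse 1.

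Markers of other cells that express some of these genes were read in the same libraries. Mast cells carry Kit, and 12 of 14 listed markers of mast cells and basophils were measured, none at 0. The list does not separate mast cells from basophils. The 12 summed to 1755 and 1754 CPM in Mel18 knockout mice 5 and 6. In wild type mice 1 and 3 they summed to 2339 and 1803 CPM, so mouse 1 stood highest here too. Prss34 alone was at 842 and 881 CPM in knockout mice and 1156 and 844 CPM in wild type mice. Mouse 1 was above mouse 3 in 10 of the 12, beside 45.8% of all genes, and the exceptions were Hdc and Il1rl1. The median ratio of mouse 1 to mouse 3 over the 12 was 1.47, beside 1.43 for the stem cell members. The ratio reached 1.5 or more for 5 of the 12, beside 9.66% of all genes. The order of the 12 stem cell genes, with the knockout mice between, was found in 2 of the 12 markers, beside 10% of all genes. Fcer1a had it, at 34.2 and 33.8 CPM in knockout mice and 65.9 and 33.1 CPM in wild type mice. Ms4a2 and Hdc did not have it. Ms4a2, a chain of the IgE receptor, was at 48.1 and 47.1 CPM in knockout mice and 81.3 and 50.7 CPM in wild type mice, and Hdc, histidine decarboxylase, at 216 and 199 CPM in knockout mice and 205 and 255 CPM in wild type mice. The part of these cells in the spread of the stem cell genes was not tested.

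Endothelial cells share Tek, Robo4, Esam, Cd34, Procr and Mmrn1 with stem cells. Of 20 endothelial markers 16 were measured, none of them at 0, with a summed level of 260 and 225 CPM in Mel18 knockout mice 5 and 6 and of 227 and 208 CPM in wild type mice 1 and 3. Vwf, which megakaryocytes also make, carried the difference of these sums. Without Vwf, left out after its values were seen, they were 176 and 161 CPM in knockout and 188 and 159 CPM in wild type mice. Wild type mouse 1 was highest in these sums, but Pecam1, whose values follow, made up most of each. Cdh5, the endothelial cadherin, was at 3.22 and 3.67 CPM in knockout mice and 3.12 and 2.49 CPM in wild type mice, and the adhesion molecule Pecam1, the most abundant of the list, had 95.1 and 85.8 CPM in knockout mice and 113 and 88.9 CPM in wild type mice. No endothelial marker passed the quasi-likelihood test, beside 0.135% of all genes. An unadjusted p under 0.05 was found for 5 of the 16, beside 8.89% of all genes. Of these, Sox18, Vwf and Kdr had positive and Fabp4 and Lyve1 negative log2 fold changes. The authors' deposited table calls 2 of the 16, Sox18 and Vwf, beside 1.13% of all genes. Sox18 had 19 and 15 counts in knockout mice and 1 and 2 in wild type mice. The median log2 fold change was 0.12, with 9 positive and 7 negative values, and the part of endothelium in the stem cell values was not tested.

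Megakaryocytes, whose genes overlap those of platelet-primed stem cells, include Cavin2 and Mmrn1 among their transcripts. The 20 listed markers summed to 777 and 709 CPM in Mel18 knockout mice 5 and 6 and to 659 and 589 CPM in wild type mice 1 and 3, with none at 0. Ppbp and Pf4 rose, 0 fell and 18 did not pass, beside 0.032% of all genes called higher and 0.103% called lower. An unadjusted p under 0.05 was found for 12, beside 8.89% of all genes. The authors' deposited table calls 6 of the 20, beside 1.13% of all genes. For 16 of the 20 both knockout libraries lay above both wild type libraries, beside 21.4% of all genes. Log2 fold changes were positive for 18 and negative for 2. Cavin2 and Mmrn1 were higher in both knockout libraries as well, and the part of megakaryocytes in this was not tested.

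Bone marrow stroma, which expresses Angpt1, had summed levels of 759 and 719 CPM in Mel18 knockout mice 5 and 6 and 129 and 244 CPM in wild type mice 1 and 3 over 16 measured markers. Collagen genes carried most of that gap. Col1a1 was at 352 and 326 CPM in knockout mice and 4.73 and 80.1 CPM in wild type mice (quasi-likelihood adjusted p = 0.682), and Col1a2 at 249 and 242 CPM in knockout mice and 5.6 and 58.2 CPM in wild type mice. The other 14 markers summed to 158 and 151 CPM in knockout mice and 119 and 106 CPM in wild type mice, a sum taken after the values were seen. Of the 16, 0 passed the quasi-likelihood test, beside 0.135% of all genes, and 7 had an unadjusted p under 0.05, beside 8.89%. The authors' deposited table calls 5 of the 16, beside 1.13% of all genes. Their median log2 fold change was 1.66, with 12 positive and 4 negative values. Both knockout libraries lay above both wild type libraries for 11 of the 16, beside 21.4% of all genes. They lay below both for 2, beside 20.9%. The 4 markers with the smallest p, Bgn, Lum, Bglap and Ibsp, had log2 fold changes of 1.36, 4.08, 3.10 and 1.75. Kitl, Spp1, Runx2 and Pdgfrb had the negative values, and Lum was at 0 counts in wild type mouse 1. The part of stroma in the Angpt1 values was not tested.

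A further 42 stem cell genes outside the members were listed, and 39 were measured. None passed the quasi-likelihood test (0 of 39), beside 0.135% of all genes, and 5 had an unadjusted p under 0.05, beside 8.89%. The authors' deposited table calls 1 of the 39, Vwf, beside 1.13% of all genes. Their median log2 fold change was -0.023 and their median ratio of wild type mouse 1 to mouse 3 was 1.09. Mouse 1 was highest and mouse 3 lowest, with the knockout mice between, in 8 of the 39, beside 10% of all genes. Vwf, von Willebrand factor, a mark of platelet-primed stem cells and of megakaryocytes, was at 84.1 and 63.8 CPM in Mel18 knockout mice 5 and 6 and 39.1 and 48.5 CPM in wild type mice 1 and 3, a log2 fold change of 0.76 ± 0.16 (SE; quasi-likelihood adjusted p = 0.275). On the same log2 scale the TGF beta co-receptor gene Eng differed by 0.37 (adjusted p = 0.391) and the tetraspanin gene Cd63 by -0.25 (adjusted p = 0.447).

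Cytokine receptor signaling, that of Kit included, was read from 24 measured genes of 26 listed names. Lnk and Sh2b3 are names of the same gene, and Pdk1, pyruvate dehydrogenase kinase 1, is a metabolic gene of the list. None passed the quasi-likelihood test (0 of 24), beside 0.135% of all genes, and 5 had an unadjusted p under 0.05, beside 8.89%. The median log2 fold change was -0.0067. On the log2 scale the kinase gene Src had a difference of 0.57 and the STAT target genes Pim1 and Socs1 had -0.31 and -0.54, with adjusted p of 0.424, 0.465 and 0.495. Kitl, the ligand of Kit, had 51 and 62 counts in Mel18 knockout mice 5 and 6 and 62 and 61 in wild type mice 1 and 3.

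No progenitor gene passed the test. Of 25 measured, 0 passed the quasi-likelihood test, beside 0.135% of all genes, and 3 had an unadjusted p under 0.05, beside 8.89%. The median log2 fold change was -0.034, with a median ratio of wild type mouse 1 to mouse 3 of 0.912. Flt3, a receptor of multipotent and lymphoid-primed progenitors, was at 61.7 and 55.0 CPM in Mel18 knockout mice 5 and 6 and 72.1 and 49 CPM in wild type mice 1 and 3. That is the order of the 12 stem cell genes, and Flt3 was the 1 progenitor gene of 25 that had it, beside 10% of all genes. Cd48, a marker of progenitors absent from the most primitive stem cells, was at 89.4 and 99.7 CPM in knockout mice and 106 and 91.6 CPM in wild type mice. The lymphoid surface gene Cd52 had the smallest p of the list, with a log2 fold change of -0.45 ± 0.082 (SE; quasi-likelihood adjusted p = 0.165). It is the 1 gene of the list called in the authors' deposited table, beside 1.13% of all genes.

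Markers of the neutrophil, monocyte, erythroid and lymphoid lineages were also read. Some of them also stand in the list of progenitor genes, so the sums do not measure mature cells alone. Neutrophil markers summed to 14515 and 14748 CPM in Mel18 knockout mice 5 and 6. In wild type mice 1 and 3 they summed to 20538 and 29076 CPM. Of the 15, 3 fell, beside 0.103% of all genes, and 0 rose, beside 0.032%. The authors' deposited table calls 10 of the 15, beside 1.13% of all genes. Monocyte, macrophage and dendritic cell markers summed to 1801 and 1890 CPM in knockout mice and 1919 and 2255 CPM in wild type mice. Erythroid markers summed to 4439 and 3522 CPM in knockout mice and 3052 and 3665 CPM in wild type mice. The sum of B and T cell markers was 603 and 562 CPM in knockout mice and 684 and 650 CPM in wild type mice. Wild type mouse 3, lowest for 17 of the 29 stem cell genes and for 20.4% of all genes, was highest for the neutrophil and monocyte sums, none of these 4 lists had a marker at 0, and their part in the stem cell values was not tested.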

How the data were processed

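The submitters' processing notes name STAR 2.5, Trimmomatic 0.40, FastQC, MultiQC 0.11.5 and edgeR 3.28.1, and the build mm10. Neither the read counter nor its strand setting is given in the sources used here. Per the labels' protocols, the kits were SMART-Seq v4 and Nextera XT, which do not mark strand. The authors deposited raw counts per gene, log2 CPM and log2 RPKM per library, and a p-value and log2 fold change of their own comparison. Gene length, given by the authors as another column, was used for RPKM. The 2 columns of per-sample values that match no sample in the labels were not used.

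From the deposited counts, robust quasi-likelihood F tests were run in edgeR 4.0.16 (R 4.3.3) after TMM scaling and filterByExpr, which removed 0 genes. P-values were adjusted by Benjamini-Hochberg across the 15607 genes, with calls at 0.05. Standard errors came from the F statistic and 95% intervals from the fit's degrees of freedom. Group values are mean ± SD of 2 mice, and each library is labelled as a separate mouse. RPKM is TMM-scaled CPM per kb. Counting intervals of ratios are exact binomial (Clopper-Pearson). On counts simulated for the 15607 genes, 83.8% of genes changed 2-fold and 52.6% of those changed 1.5-fold were recovered. These rates were not split by expression level or worked out for the members. They therefore do not show how often a change would be called in members with few counts or a wide gap within wild type.

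Alternatives were DESeq2 1.42.0 (Wald test and size factors), limma 3.58.1 voom, other edgeR settings and filters, and leaving out each library. The members and the 11 comparison lists were chosen with earlier results of these data known. The rule for named genes took all measured members, Pcgf2 and, from each list, up to 4 genes with the smallest p and those at the highest and lowest level. Kitl, Flt3, Cd48, Cdh5, Fcer1a, Hdc, Col1a2, Spp1, Runx2 and Pdgfrb were named outside it, after their values were seen, and some genes that it takes are not reported here. Coordinates are the file's, on mm10, and 28 of the 29 members have the same ones in GENCODE M21. Exons of 7 members overlap an exon of another gene (Angpt1, Cd27, Cd34, Clca3a1, Mecom, Prdm16 and Sult1a1). Reads of pairs on opposite strands cannot be told apart without strand. Cd27 and Mir8113 lie on the same strand, so strand would not separate them.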

Additional observations from a re-analysis of the deposited data

How the results depend on the processing

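No paired analysis was possible because the mouse numbers of the groups are not shared. With 2 mice a group, an exact permutation test of a single gene cannot go below p = 0.333. Under the 9 alternatives that kept all libraries, tested members kept their direction, except Fgd5, which had 0.035 under limma voom (Fgd5, Ghr and Neo1 were not tested with the filter of 1 CPM), and the call of members changed only under DESeq2 (1 higher). Over all genes, 48 rose and 171 fell under DESeq2, 0 and 0 under limma voom, 57 and 120 under the likelihood ratio test, 3 and 1 without robust estimation, and 6 fell where only genes at 1 CPM in 2 libraries were kept. The cause was not tested.

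Leaving out each library in turn gave 0 to 1 members higher, 0 to 5 lower and a members' median log2 fold change of -0.326 to 0.215. Over all genes it gave 4 to 404 higher and 1 to 440 lower. The lone library was then assumed to vary like the other group. The direction turned for 15 members. Their log2 fold changes ranged from -0.133 to 0.255 for Adgrg1, -0.656 to 0.329 for Angpt1, -0.421 to 0.285 for Cd27, -0.326 to 0.200 for Cd34, -0.342 to 0.427 for Fgd5, -0.679 to 0.664 for Ghr, -0.359 to 0.182 for Hlf and -0.031 to 0.192 for Kit. They ranged from -0.652 to 0.152 for Mecom, -0.917 to 0.149 for Myct1, -0.297 to 0.130 for Neo1, -0.628 to 0.384 for Procr, -0.726 to 0.705 for Robo4, -0.639 to 0.600 for Slamf1 and -0.337 to 0.904 for Tek. Outside the members, Fcer1a ranged from -0.963 to 0.041 and Flt3 from -0.314 to 0.252.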
